A study of Mus musculus with 80 samples.

Results

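Agrp and Npy, the genes of the peptides that name the AgRP neurons of the hypothalamus, were followed through every library of a mouse RNA-seq series. They are 2 of the 23337 genes of the deposited table and were chosen by name, without a threshold on their values. Both had a value above 0 in all 80 libraries.

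AgRP neurons lie in the arcuate nucleus (ARH) and drive feeding. Agouti-related peptide, the product of Agrp, blocks the melanocortin receptors MC3R and MC4R, on which the POMC product alpha-MSH acts to lower food intake. Neuropeptide Y, the product of Npy, promotes feeding through the Y1 and Y5 receptors, and the Y2 receptor acts as its autoreceptor. The same neurons release GABA, and both peptide genes are textbook targets of fasting, leptin and insulin.

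The libraries fall into 20 groups, and every sample is labelled as AgRP+ ARH neurons. In NPY::hrGFP mice, cells dissociated from brain slices were sorted for GFP after ad libitum feeding (6 libraries at ZT2 and 3 at ZT14), after a fast of 24 h (7 and 8), or after that fast and 1 h of refeeding (5 and 4). ZT is zeitgeber time, in hours after lights on. In AGRP-Cre;RiboTag mice, RNA on tagged ribosomes was immunoprecipitated after ad libitum feeding (3 libraries at ZT2 and 4 at ZT14) or after the same fast (5 and 5). A leptin series compared WT;BMAL1fx controls with AGRP-Cre;BMAL1fx mice, which lose the clock gene Bmal1 (Arntl) where Cre acts, after PBS or leptin at ZT2 or ZT14 (3 libraries a group, and 4 for control PBS at ZT2). Another 2 control and 3 AGRP-Cre;BMAL1fx libraries, with no treatment given in the labels, were collected at ZT5. The floxed Bmal1 allele is thus carried by controls and knockouts alike. The GFP gate rests on an Npy-driven reporter and the Cre on an Agrp-driven transgene, so the sorted and RiboTag sources were each selected through 1 of the 2 genes measured here. The labels do not say plainly how the cells of the leptin and ZT5 series were collected. The labels number the libraries of a group as collections and do not say whether these are separate mice or pools, so the p-values measure the spread between libraries.

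Agrp lies on the minus strand of chromosome 8 (105566698 to 105637393, GRCm38/mm10, GENCODE M21), and its shortest transcript, Agrp-201 (661 bases, 5 exons), starts at 105568298. An antisense gene, Gm38250 (105566324 to 105578109, plus strand), overlaps it, and the counting is not stated to use strand. Npy lies on the plus strand of chromosome 6 (49822710 to 49829507), with the transcript Npy-201 (566 bases, 4 exons). In both genes the coding sequence is spread over 3 exons. The coding sequences of Agrp-201 (396 bases, 131 codons) and Npy-201 (294 bases, 97 codons), read from the mm10 genome, show how short the 2 messages are that make up so much of these libraries. For Agrp the last 300 coding bases are printed, and Npy is whole. Capitals mark the start codon of Npy and the stop codon of each.
Agrp-201: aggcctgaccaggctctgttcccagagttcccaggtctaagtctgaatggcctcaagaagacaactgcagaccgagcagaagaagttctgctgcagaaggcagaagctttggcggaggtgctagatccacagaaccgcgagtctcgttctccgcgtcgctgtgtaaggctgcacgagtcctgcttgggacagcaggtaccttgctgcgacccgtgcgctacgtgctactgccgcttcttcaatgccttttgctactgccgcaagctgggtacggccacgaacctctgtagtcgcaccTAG
Npy-201: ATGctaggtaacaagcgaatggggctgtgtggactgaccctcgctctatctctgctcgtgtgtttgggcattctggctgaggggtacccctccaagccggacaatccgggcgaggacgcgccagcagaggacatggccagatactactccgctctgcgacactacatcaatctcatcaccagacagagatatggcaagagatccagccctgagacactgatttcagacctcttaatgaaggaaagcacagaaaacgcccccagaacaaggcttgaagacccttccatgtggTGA

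The promoter of Npy is shown alone, since the promoter set used held no entry for Agrp. The promoters of the 2 genes were thus not compared, and shared control of the 2 messages was not tested. These are the 250 bases before the start at chr6:49822460-49822709 on the plus strand (RefSeq, GRCm38.p6), with 69.2% G and C, which is above 89.6% of promoters of that length. Both strands were searched for 8 motifs, and the share of the 32851 promoters of that length that hold each is given with it. The cyclic AMP response element TGACGTCA was in 1.55% of promoters and its first part TGACG, which overlaps it, in 17.8%. The FOXO site GTAAACA was in 3.17%, the STAT site TTCNNNGAA in 7.02% and the E-box CACGTG in 6.02%. The GC box GGGCGG was in 32.7%, the homeodomain site TAATTA in 4.84% and the TATA box TATAAA in 12.4%. Only GGGCGG was found, once, starting 95 bases before the start, and it is in capitals. This match is a description and not a binding site.
Npy promoter: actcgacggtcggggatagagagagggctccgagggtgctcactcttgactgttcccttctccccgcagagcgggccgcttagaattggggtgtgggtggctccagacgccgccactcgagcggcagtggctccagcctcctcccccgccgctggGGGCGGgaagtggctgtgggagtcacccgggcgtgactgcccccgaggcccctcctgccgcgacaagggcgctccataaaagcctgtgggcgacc

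The normalised counts were traced back to whole reads, 5925100 to 33976500 per library (median 14273200). In the sorted ad libitum ZT2 replicate 4 the values gave whole reads for only 17.5% of genes, against at least 99.99% in the other 79 libraries. There the smallest value, 1.07, was taken as 1 read, but 100% of the low values checked were whole multiples of 0.536. The 17.5% thus reflects the step used, and the reads of this library were not recovered. Among RiboTag libraries, fasted ZT2 replicate 3 held Ptgds at 2833470 normalised counts, fasted ZT2 replicate 5 had far more Agrp and Npy than any other, and fasted ZT14 replicate 4 and ad libitum ZT2 replicate 1 had the least of their groups. Hsd11b2, which lies near Agrp on chromosome 8 beyond the neighbouring gene Atp6v0d1, was at 1048 to 3971 in the RiboTag libraries and 2092 to 3749 in the leptin-series knockouts, and at most 23.3 in the sorted cells and 19.7 in the leptin-series controls. At ZT5 it went against the label in the library labelled control 1 (4628) and in that labelled knockout 3 (11.2). The differences, the ratio, the spread and the gene lists were also computed without these 7 libraries, and the values without them are given where a call changed or a difference of Agrp or Npy moved by over 1.5 times. RiboTag fasted ZT2 replicate 5, fasted ZT14 replicate 4 and ad libitum ZT2 replicate 1 were set apart by their Agrp and Npy values. The p-values of these 2 genes without them are therefore descriptions and not separate evidence. The other defining markers of AgRP neurons were present in every group: 10 marker genes without Agrp and Npy summed to 26318 to 72794 normalised counts in sorted cells and 24691 to 51453 in RiboTag libraries.

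Levels per kilobase used the longest transcript of each of 20929 genes with a known length, and 2408 genes had none. On this scale Npy was the most abundant message in 75 of 80 libraries, among them all 33 sorted, 25 leptin-series and 5 ZT5 libraries. Agrp held place 2 or 3 in each of those. In the 17 RiboTag libraries Npy was first in 12 and Agrp ranged from place 2 to 125, with a median of 7. Per kilobase the level of Npy was a median of 4.73 times that of Agrp (range 2.41 to 7.51). With Agrp-201 in place of the longest Agrp transcript (734 bases) the median was 4.26. By normalised counts without length, Npy was first in 55 of 80 libraries. By the same counts Agrp ranged from place 2 to 764 in RiboTag libraries, with a median of 60. As a share of all normalised counts of a library, Npy took 0.107% to 12.4% (median 2.44%) and Agrp 0.0237% to 6.71% (median 0.647%).

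The levels below are normalised counts, which compare libraries for 1 gene and not the 2 genes with each other. By the mean of log2 levels, the sorted refed cells at ZT2 stood first of the 20 groups for both genes, and the RiboTag fasted ZT14, RiboTag ad libitum ZT14 and RiboTag ad libitum ZT2 groups stood last. Sorted ad libitum cells were in places 16 (ZT14) and 17 (ZT2) for both genes, under every leptin-series and ZT5 group and every sorted fasted or refed group. Without the libraries that stand apart, the refed ZT2 group was still first, the same 3 RiboTag groups were last and RiboTag fasted ZT2 went from place 5 to 15 for Agrp and from 6 to 15 for Npy. With all libraries, no group differed from its neighbour in this order by more than the larger SD of the pair, for either gene.

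**Figure D1:**
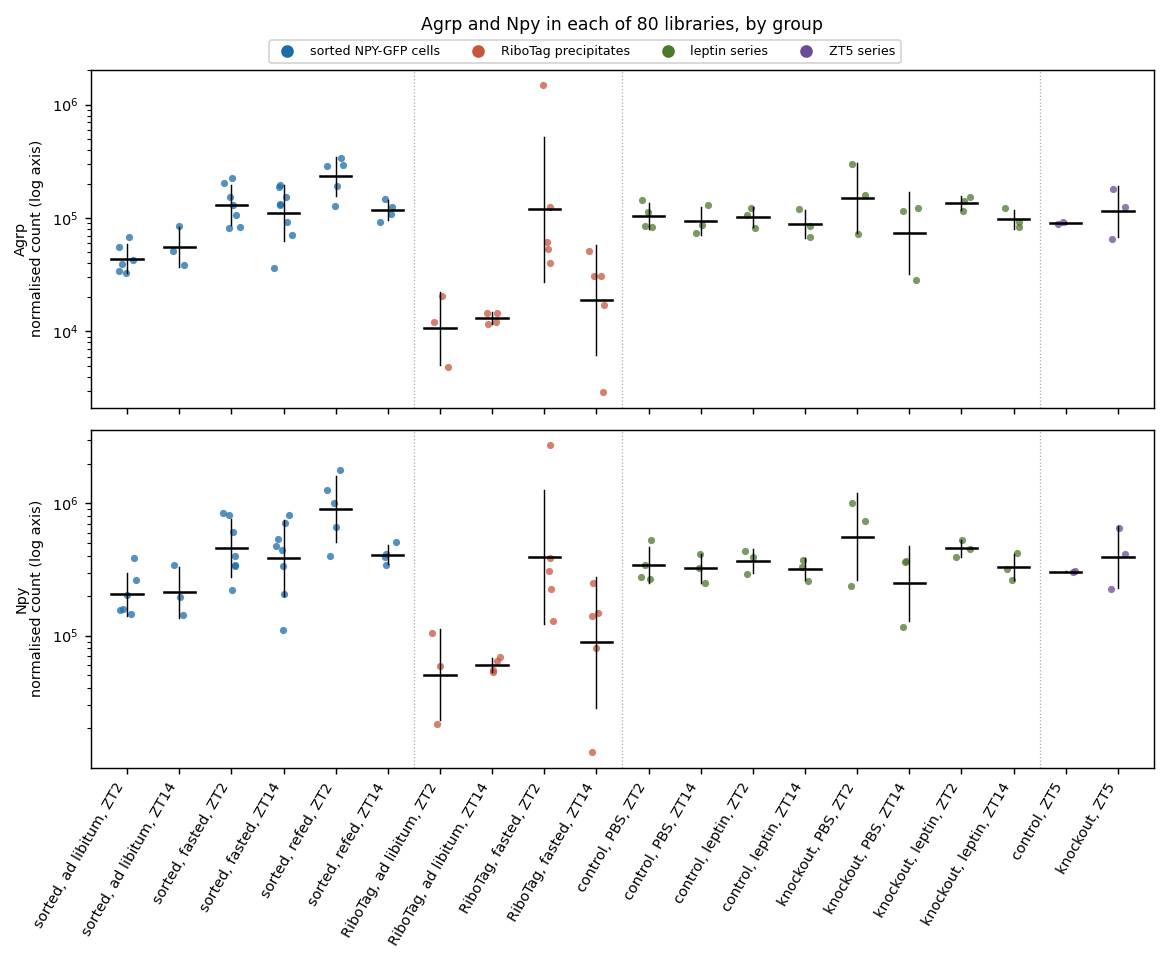
Normalised counts of Agrp and Npy (log axes) in each of the 80 libraries, by group; points are libraries, bars are geometric means and lines are 1 SD on the log2 scale to either side. Refed ZT2 cells stand highest, RiboTag ad libitum and fasted ZT14 libraries stand lowest, and RiboTag fasted ZT2 has 1 library, at 1488870 for Agrp and 2761620 for Npy, far above the other 4.

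Both peptide genes were higher in fasted than in ad libitum sorted cells at ZT2. Agrp lay between 32495 and 68414 normalised counts in the 6 ad libitum libraries (median 41111) and between 81711 and 225297 in the 7 fasted ones (median 131434). Every fasted library was above every ad libitum one, so the groups did not overlap, as was the case for 7.86% of all 14931 genes tested with fasted higher. The mean rose from 45534 ± 13985 (SD, n = 6) to 140576 ± 56817 (SD, n = 7), a log2 difference of 1.58 ± 0.33 (SE) or 2.98-fold (95% interval 1.87 to 4.76), with limma's adjusted p = 0.0003.

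Npy was higher as well, with more overlap. It lay between 146515 and 383064 in ad libitum cells (median 180459) and between 223056 and 844191 in fasted cells (median 400055), and 4 of 7 fasted libraries were above all ad libitum ones. The highest ad libitum value is that of replicate 4, whose reads were not recovered with the step used. The mean went from 218752 ± 91619 (SD, n = 6) to 511301 ± 249083 (SD, n = 7), a log2 difference of 1.16 ± 0.42 (SE) or 2.24-fold (1.24 to 4.05), with limma's adjusted p = 0.0279. In this comparison 37.5% of all genes were called and 18.3% of all genes were called higher in fasted cells, so 2 of 2 peptide genes stand beside a broad change. The Npy call was lost when any 1 of 6 libraries was left out (limma, adjusted p = 0.0581, 0.0553 and 0.0625 without ad libitum replicates 1, 2 and 6, and 0.0635, 0.0626 and 0.0501 without fasted replicates 1, 3 and 4). The Agrp call was kept in every such fit, and both calls were kept without ad libitum replicate 4 (0.0002 for Agrp and 0.0158 for Npy).

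At ZT14 neither gene passed in sorted cells. Agrp was 38420, 51487 and 85584 in the ad libitum libraries and 36282 to 194088 (median 131477) in the 8 fasted ones, of which 6 were above all ad libitum values and 1, replicate 5, was below them. Npy was 143136, 197520 and 342602 in the ad libitum libraries and 109373 to 811819 (median 456964) in the fasted ones, with 5 of 8 above and replicate 5 again below. The log2 differences were 1.01 ± 0.40 (SE) for Agrp and 0.86 ± 0.51 for Npy (limma, adjusted p = 0.0784 and 0.254), where 18.5% of all genes were called. Without fasted replicate 5 the Agrp difference was 1.24 and its adjusted p 0.0093, and edgeR's and DESeq2's count tests on recovered reads also called Agrp (adjusted p = 0.0466 and 0.0132).

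The fasting response was not shown to differ between the 2 times. The difference of the fasting effect, ZT14 minus ZT2, was -0.57 (95% interval -1.63 to 0.49) for Agrp and -0.31 (-1.65 to 1.04) for Npy on the log2 scale, with adjusted p = 0.999 for both by limma, and -0.70 and -0.49 without ad libitum ZT2 replicate 4. In that test 0 of 14931 genes were called (647 at an unadjusted p under 0.05, 0 by edgeR and 29 by DESeq2). Averaged over both times, Agrp was 2.45-fold (1.70 to 3.54) and Npy 2.01-fold (1.26 to 3.21) higher in fasted cells (limma, adjusted p = 0.0001 and 0.0129), in a contrast that called 44.7% of genes. The averaged Npy call was lost without ad libitum ZT14 replicate 3 (limma, adjusted p = 0.0666).

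Other values differed between the same libraries. Cebpb, a stress-responsive transcription factor, was at most 7.5 in ad libitum and at most 11.3 in refed sorted cells but 170 to 1385 in fasted ones, and the ribosomal RNA precursor Rn45s was 161685 to 715369 in ad libitum, 1725 to 15467 in fasted and 137697 to 652629 in refed cells at ZT2. All 5 ZT5 libraries, whose labels name no fast, had the same profile, with Cebpb at 433 to 630 and Rn45s at 1577 to 4007. It thus marks a set of libraries that holds the fasted sorted cells and others, and in sorted cells it cannot be told apart from fasting. At ZT2, 8 of 10 markers of other hypothalamic neurons rose with fasting (median log2 difference 2.59), as did 3 of 9 astrocyte (median 2.19), 1 of 5 microglial (0.14) and 1 of 6 tanycyte markers (1.97). Of all genes 18.3% were called higher and 37.5% called, so the microglial and tanycyte counts are near that share. Without ad libitum replicate 4, 0 of 4 oligodendrocyte markers were called, and of 10 AgRP neuron markers other than the pair 2 rose and 3 fell. Summed markers of other hypothalamic neurons were 3796 to 9605 in ad libitum and 12980 to 63324 in fasted cells, those of microglia 7.5 to 67.0 and 82.5 to 701, and those of tanycytes 176 to 494 and 712 to 6088. None of these 3 sums overlapped between the groups. The summed astrocyte markers were 3296 to 6024 (median 4389) in ad libitum and 2951 to 37617 (median 4104) in fasted cells, with fasted replicates 3 (16764) and 6 (37617) above the ad libitum range. No astrocyte marker was at 0 in all libraries of either group, Gfap and Aqp4 included. The part of these values in the Agrp and Npy differences was not tested. In bulk samples fewer cells of a type and less RNA per cell cannot be told apart.

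The highest values of the sorted series, for both genes, were in cells refed for 1 h at ZT2. Agrp was 291858, 191372, 127329, 338142 and 288772 in the 5 refed libraries, all above the 6 ad libitum ones. Npy was 1264470, 665137, 402680, 1801100 and 1004390, also all above the ad libitum range. Groups that did not overlap with refed higher made up 4.96% of genes, 17.7% of all genes were called, and 9.01% of all genes were called higher in refed cells. The log2 difference, refed minus ad libitum, was 2.41 ± 0.36 (SE) for Agrp (5.32-fold, 95% interval 3.20 to 8.85) and 2.14 ± 0.46 for Npy (4.41-fold, 2.32 to 8.41), with limma's adjusted p = 2.1e-05 and 0.0015. The refed libraries had low Cebpb and high Rn45s, as the ad libitum ones did. Their summed markers of other hypothalamic neurons (12238 to 29995), POMC neurons (2624 to 5501, against 1262 to 2484), microglia (165 to 532) and tanycytes (664 to 1257) were all above the ad libitum ranges, while those of astrocytes (1814 to 3229) were all below. The 10 AgRP neuron markers other than the pair summed to 42876 to 72794 (median 49654) in refed and 32170 to 46075 (median 36404) in ad libitum cells. Only refed replicate 3 was inside that ad libitum range, and replicate 4, with the most Agrp and Npy, had the highest sum. The part of all these markers in the result was not tested. Of the microglial markers Csf1r, Tmem119 and C1qa were at 0 in all 5 refed libraries.

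Against fasted cells the refed ZT2 values were higher without passing the test. The log2 difference was 0.83 ± 0.35 (SE) for Agrp and 0.98 ± 0.44 for Npy (limma, adjusted p = 0.0841 and 0.112), with 3 of 5 refed libraries above all fasted ones for each gene and 21.8% of genes called. Without refed replicate 3, the lowest of its group for both genes, the adjusted p was 0.0378 and 0.0474, and DESeq2 on recovered reads gave 0.0430 and 0.0322. Refed against fasted and refed against ad libitum share the refed libraries, so their values are not separate evidence. The refed and fasted libraries also differed in Cebpb and Rn45s, as given above, and that profile cannot be told apart from refeeding here.

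At ZT14 refed cells were close to fasted ones. Agrp was 125971, 147857, 92610 and 109266 and Npy was 414704, 508716, 341365 and 392381 in the 4 refed libraries, all inside the fasted range. The log2 difference from fasted cells was 0.07 (95% interval -0.67 to 0.82) for Agrp and 0.09 (-0.85 to 1.03) for Npy, and its sign turned in the edgeR, DESeq2, weighted and replicate-block fits. Against ad libitum cells, 4 of 4 refed libraries were above all 3 for Agrp and 3 of 4 for Npy, where 6.99% of genes had groups that did not overlap with refed higher. These log2 differences of 1.08 ± 0.46 (SE) and 0.94 ± 0.58 did not pass (limma, adjusted p = 0.598 and 0.931), in a comparison that called 0.375% of genes. Averaged over both times, refed cells had 3.36-fold more Agrp (2.23 to 5.05) and 2.91-fold more Npy (1.73 to 4.90) than ad libitum cells (limma, adjusted p = 0.0001 and 0.0048), where 12.4% of genes were called.

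Time of day moved neither gene past the test within a feeding state of the sorted cells. From ZT2 to ZT14 the log2 difference was 0.33 (95% interval -0.52 to 1.19) for Agrp and 0.05 (-1.03 to 1.14) for Npy in ad libitum cells, and -0.24 (-0.86 to 0.39) and -0.25 (-1.05 to 0.54) in fasted cells. Without ad libitum ZT2 replicate 4 the Npy difference in ad libitum cells was 0.23. In refed cells it was -0.99 (-1.81 to -0.18) and -1.14 (-2.18 to -0.11), with limma's adjusted p = 0.543 and 0.602. The calls over all genes were 0 in ad libitum cells (limma; 413 at an unadjusted p under 0.05, 0 by edgeR and 37 by DESeq2), 0.281% in fasted and 0.0268% in refed cells.

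**Figure D2:**
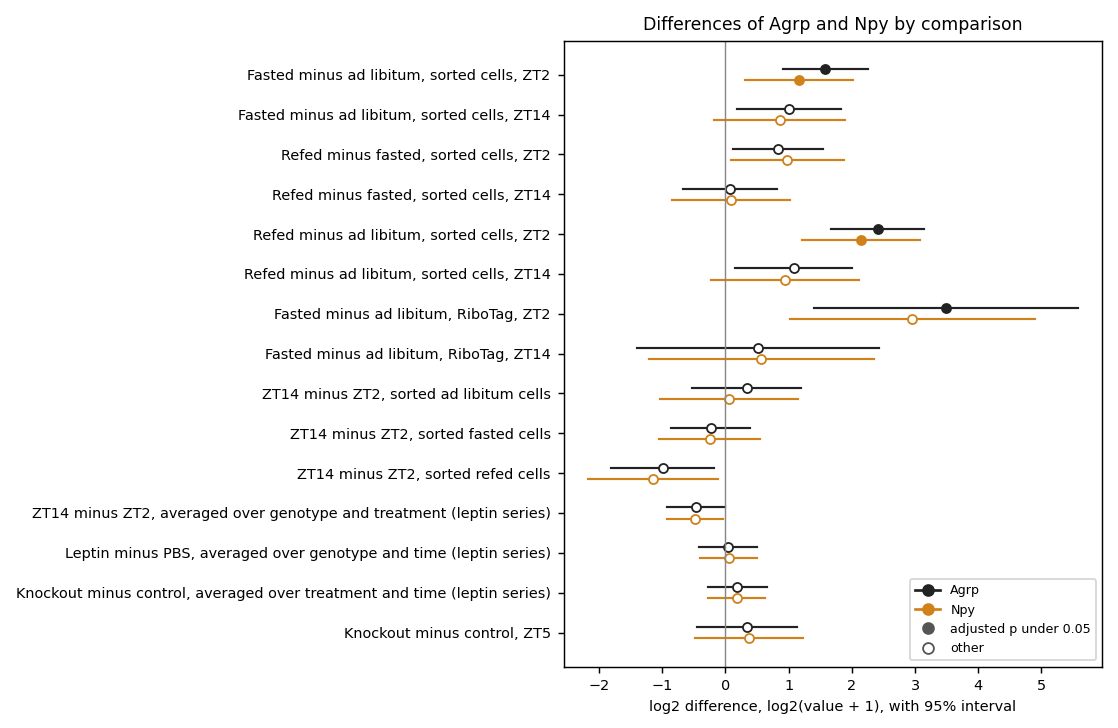
Log2 differences of Agrp and Npy in 15 comparisons, with 95% intervals from limma; filled points have an adjusted p under 0.05. Filled are both genes for fasted and for refed against ad libitum sorted cells at ZT2, and Agrp for fasting in RiboTag libraries at ZT2; every leptin, knockout and time point is open.

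In RiboTag libraries both genes were also higher after fasting at ZT2. Agrp was 4840, 12041 and 20738 in the ad libitum libraries and 40354, 61839, 52946, 124349 and 1488870 in the fasted ones. Npy was 21437, 58874 and 103927 against 129128, 224009, 306484, 388895 and 2761620. All 5 fasted libraries were above all 3 ad libitum ones for both genes, as for 8.61% of 15444 genes with fasted higher. The log2 difference was 3.49 ± 0.99 (SE) for Agrp, or 11.2-fold (95% interval 2.64 to 47.7), and 2.96 ± 0.92 for Npy, or 7.76-fold (2.02 to 29.8). By limma the adjusted p was 0.0385 for Agrp and 0.0565 for Npy, with 7.89% of genes called and 4.08% called higher. Cebpb was 2.44 to 3.99 in these ad libitum and 131 to 1205 in these fasted libraries, while Rn45s overlapped. The high Cebpb thus cannot be told apart from fasting in RiboTag libraries at ZT2 either.

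These sizes rest on few libraries. Without the RiboTag libraries that stand apart, the log2 difference at ZT2 was 2.10 ± 0.48 (SE) for Agrp and 1.52 ± 0.50 for Npy (limma, adjusted p = 0.0229 and 0.126). The Agrp call was lost without ad libitum replicate 1, 2 or 3 (adjusted p = 0.177, 0.122 and 0.0576) or fasted replicate 4 or 5 (0.0577 and 0.0530), and Npy was called without fasted replicate 1 (0.0270) and by edgeR and DESeq2 (0.0422 and 0.0002). In fasted replicate 5 the 10 AgRP neuron markers other than the pair summed to 32815, the lowest of its group, and the markers of other hypothalamic neurons to 136931, their part not tested.

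At ZT14 the RiboTag fasting differences were small against their spread. Agrp was 11701, 14691, 12098 and 14636 in ad libitum libraries and 30537, 16956, 51208, 2910 and 30639 in fasted ones. Npy was 54579, 68410, 53246 and 64554 against 140465, 81212, 250190, 13123 and 147272. For both genes 4 of 5 fasted libraries were above all ad libitum ones and replicate 4 was below them. The log2 differences of 0.51 (95% interval -1.41 to 2.43) and 0.57 (-1.21 to 2.35) did not pass (limma, adjusted p = 0.828 and 0.782), where 5.29% of genes were called. Without the RiboTag libraries that stand apart, replicate 4 among them, they were 1.18 and 1.26 (limma, adjusted p = 0.0658 and 0.0622). Cebpb was 1.29 to 5.11 in these ad libitum and 42.5 to 1565 in these fasted libraries. Rn45s was 73839 to 214779 in the ad libitum and 3966 to 32736 in the fasted ones, so neither gene overlapped. The profile of high Cebpb and low Rn45s cannot be told apart from fasting in RiboTag libraries at ZT14.

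The RiboTag fasting effect was not shown to differ between times after adjustment over all genes. The difference of effects, ZT14 minus ZT2, was -2.98 (95% interval -5.81 to -0.14) for Agrp and -2.39 (-5.02 to 0.25) for Npy (limma, adjusted p = 1.00 for both), and 0 genes were called (252 at an unadjusted p under 0.05, 0 by edgeR and 1 by DESeq2). Without the RiboTag libraries that stand apart this difference shrank to -0.91 ± 0.61 (SE) for Agrp and -0.26 ± 0.63 for Npy. Averaged over both times, Agrp was 4.00-fold (1.50 to 10.7) and Npy 3.39-fold (1.36 to 8.45) higher in fasted RiboTag libraries, with limma's adjusted p = 0.0414 and 0.0519 and 22.1% of genes called. Without the libraries that stand apart the averaged log2 differences were 1.64 and 1.39 (limma, adjusted p = 0.0025 and 0.0096). Libraries were left out there by their values of these same genes, so these p-values are not separate evidence. With all libraries, the averaged Agrp call was lost when any 1 of 11 libraries was left out (adjusted p up to 0.118). The high Cebpb of fasted RiboTag libraries cannot be told apart from fasting in the averaged contrast either.

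RiboTag libraries of ad libitum mice held less of both messages than sorted ad libitum cells. Fasted libraries of the 2 sources overlapped at ZT2 for both genes, and no test was made between them. In ad libitum mice at ZT2 all 3 RiboTag libraries were below all 6 sorted ones for both genes, with log2 differences of -2.04 ± 0.73 (SE) for Agrp and -2.02 ± 0.75 for Npy (limma, adjusted p = 0.0238 and 0.0289). At ZT14 all 4 were below all 3, with -2.07 ± 0.79 and -1.83 ± 0.81 (limma, adjusted p = 0.0386 and 0.0723). Over 16132 genes, groups did not overlap with RiboTag lower for 16.9% at ZT2 and 21.8% at ZT14, and 40.6% and 35.1% were called. The ZT2 calls were lost without RiboTag replicate 1 (0.188 and 0.228) or 2 (0.0556 and 0.0641), and the Npy call also without sorted replicate 4 (0.0563). Without the libraries that stand apart the differences were -1.35 ± 0.51 (SE) and -1.21 ± 0.61 at ZT2 (limma, adjusted p = 0.0424 and 0.123), and both genes were called at ZT14 (0.0008 and 0.0088). The Agrp call at ZT14 was lost without any 1 of the 4 RiboTag libraries (0.0536 to 0.0723) or sorted replicate 1 or 2 (0.159 and 0.0827).

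Markers of other cells were high in the same RiboTag libraries. Against sorted ad libitum cells at ZT2, 8 of 9 astrocyte, 6 of 6 oligodendrocyte, 7 of 7 microglial and 6 of 6 endothelial markers were called higher, and 6 of 7 microglial ones without the libraries that stand apart. The summed astrocyte markers were 16727 to 345837 in RiboTag and 1814 to 37617 in sorted libraries, with none at 0 in all libraries of a RiboTag group, and the summed oligodendrocyte markers 10835 to 240514 and 751 to 6537. The 10 AgRP neuron markers other than the pair overlapped between ad libitum groups. They summed to 31607 to 40832 in RiboTag and 32170 to 46075 in sorted libraries at ZT2, and to 28718 to 35535 and 32468 to 36683 at ZT14. Without the libraries that stand apart, 0 of these 10 were called at ZT2 (median log2 difference 0.38). The part of the other cells in the lower Agrp and Npy was not tested, and method, mouse line and RNA source cannot be told apart. The fasting effect itself, averaged over times, differed between RiboTag and sorted libraries by 0.71 ± 0.68 (SE) for Agrp and 0.75 ± 0.70 for Npy (limma, adjusted p = 0.509 and 0.491), where 14.2% of genes were called. This was 0.29 ± 0.44 (SE) and 0.29 ± 0.53 without the libraries that stand apart.

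**Figure D3:**
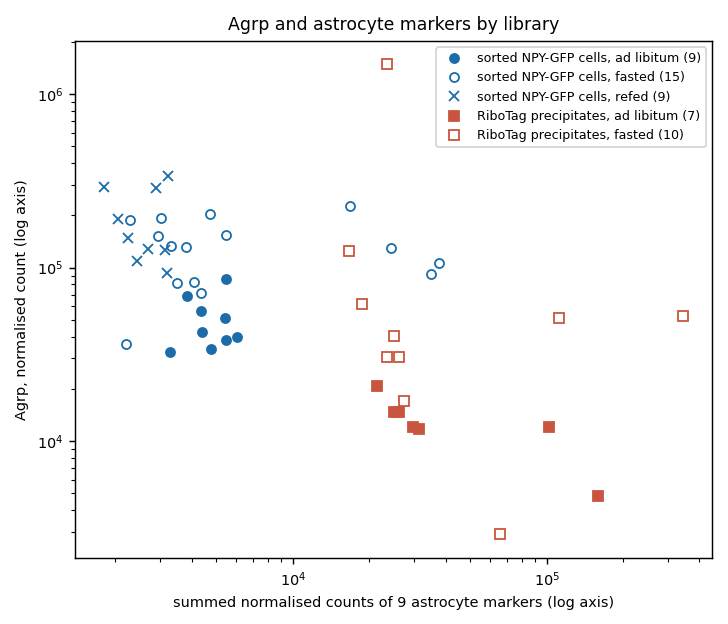
Agrp against the summed normalised counts of 9 astrocyte markers (log axes) in each sorted (circles and crosses) and RiboTag (squares) library; filled marks are ad libitum, open marks fasted and crosses refed. RiboTag libraries lie to the right (16727 to 345837) of most sorted ones (1814 to 37617), and within each source the fasted and refed libraries lie above most ad libitum ones, apart from 1 fasted library in each source that lies below most of them.

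Leptin gave no difference past the test in either peptide gene. Over the 8 groups of the leptin series, Agrp ranged from 28236 to 297351 (median 113809) and Npy from 116529 to 1005670 (median 358790). In PBS controls at ZT2 Agrp was 113809, 144168, 83550 and 84312, and in leptin-treated controls 123095, 82522 and 106532. In PBS controls at ZT14 it was 129977, 74119 and 86315, and with leptin 121039, 67526 and 85066. These groups overlapped at both times, and the lowest leptin library was just under the lowest PBS one at each. In knockouts Agrp was 71934, 160413 and 297351 with PBS and 140983, 116527 and 154458 with leptin at ZT2, and 28236, 116288 and 122482 with PBS and 91459, 83911 and 121760 with leptin at ZT14. In knockouts the leptin range of Agrp fell inside that of PBS at both times.

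Npy overlapped between leptin and PBS in all 4 pairs of groups. In controls it was 342990, 530472, 267808 and 278240 with PBS and 432861, 292715 and 391535 with leptin at ZT2, and 416969, 324568 and 250821 against 374622, 258763 and 331878 at ZT14. In knockouts it was 238329, 734160 and 1005670 with PBS and 393550, 530816 and 454116 with leptin at ZT2, and 116529, 358790 and 367692 against 320601, 265400 and 421957 at ZT14. The last of these was the only leptin library outside its PBS range for Npy. Averaged over genotype and time, leptin minus PBS was 0.04 (95% interval -0.42 to 0.50) for Agrp and 0.05 (-0.40 to 0.50) for Npy on the log2 scale, with limma's adjusted p = 1.00 for both and 0.925% of 13942 genes called. The interval leaves room for changes from 0.745-fold to 1.42-fold in Agrp and from 0.758-fold to 1.41-fold in Npy. In the same contrast Pomc, the precursor of alpha-MSH, rose by 1.37 ± 0.24 (SE) on the log2 scale (limma, adjusted p = 0.0030).

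Loss of Bmal1 in AgRP neurons did not move the pair past the test either. Averaged over treatment and time, knockout minus control was 0.19 (95% interval -0.28 to 0.65) for Agrp and 0.17 (-0.27 to 0.62) for Npy (limma, adjusted p = 0.931 and 0.933), where 0.0789% of genes were called. Arntl, the targeted gene, was lower by a log2 difference of -0.84 ± 0.21 (SE), with limma's adjusted p = 0.143. The leptin effect differed between genotypes by 0.18 (-0.75 to 1.11) for Agrp and 0.01 (-0.88 to 0.91) for Npy, and 0 genes were called in that test (651 at an unadjusted p under 0.05, 0 by edgeR and 4 by DESeq2).

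The averaged time difference of the leptin series leaned towards ZT2 without passing. ZT14 minus ZT2 was -0.47 ± 0.22 (SE) for Agrp and -0.48 ± 0.22 for Npy (limma, adjusted p = 0.438 and 0.383), where 0.638% of genes were called. It was widest in PBS knockouts, at -1.03 ± 0.46 and -1.17 ± 0.44 (limma, adjusted p = 0.978 and 0.919), where 0 genes were called (692 at an unadjusted p under 0.05, 0 by edgeR and 11 by DESeq2). That group pair holds both the highest knockout library, at ZT2, and the lowest of the series, at ZT14. Leaving out 1 library moved the difference to between -1.57 (without ZT2 replicate 2) and -0.34 (without ZT14 replicate 1) for Agrp and between -1.79 and -0.63 for Npy, with the same libraries at the ends.

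At ZT5 Agrp was 91481 and 89413 in the libraries labelled control and 65807, 180490 and 126064 in those labelled knockout. Npy was 301554 and 306046 against 225774, 652767 and 412048. The knockout range enclosed the control values for both genes. Arntl, the targeted gene, was 750 and 390 in the libraries labelled control and 540, 470 and 491 in those labelled knockout. Its knockout values lay inside the control range, so these libraries do not show its loss. The log2 difference, knockout minus control, was 0.34 ± 0.35 (SE) for Agrp and 0.37 ± 0.38 for Npy (limma, adjusted p = 0.788 and 0.782), and 0 of 12940 genes were called (1157 at an unadjusted p under 0.05, 0 by edgeR and 99 by DESeq2). Without the 2 libraries whose Hsd11b2 goes against the label, the differences were 0.29 and 0.33.

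The ratio of the 2 peptide messages was steadier than either. Within groups, the pooled SD was 0.90 for log2 Agrp and 0.88 for log2 Npy but 0.24 for log2 of Agrp over Npy, and 0.61, 0.67 and 0.19 without the libraries that stand apart. Group means of that log2 ratio ran from -2.25 in RiboTag ad libitum ZT2 libraries to -1.72 in PBS controls at ZT2. The normalised counts are not per length, so the ratio compares libraries and not the abundance of the 2 messages.

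**Figure D4:**
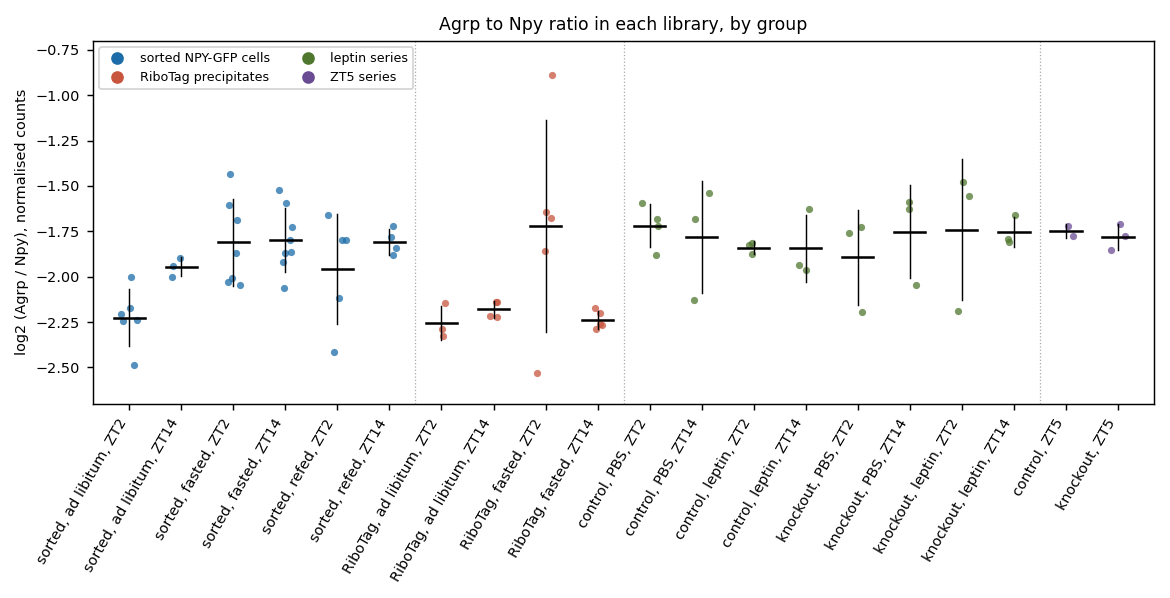
Log2 of Agrp over Npy in each library by group, with the mean and 1 SD to either side. Sorted ad libitum ZT2 cells (mean -2.23) lie lower than sorted fasted ZT2 cells (-1.81), and 2 RiboTag fasted ZT2 libraries lie at the ends of the whole range (-2.53 and -0.89).

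With fasting at ZT2 the balance leaned towards Agrp in sorted cells. The log2 ratio was -2.49 to -2.00 (median -2.22) in ad libitum and -2.05 to -1.43 (median -1.87) in fasted cells, and 4 of 7 fasted libraries were above all ad libitum ones. The means of -2.23 ± 0.16 (SD, n = 6) and -1.81 ± 0.24 (SD, n = 7) differed by 0.41 ± 0.11 (SE), with an exact two-sided permutation p = 0.0047 and an adjusted p = 0.131 over the 28 ratio comparisons. This was the lowest adjusted p of the 28, so no ratio comparison passed.

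Other ratio differences had groups that did not overlap but few libraries. Ad libitum cells at ZT14 (-2.00, -1.94 and -1.90) were all above those at ZT2, an exact permutation p of 0.0238, the smallest 3 against 6 libraries allow (adjusted 0.32). Refed cells at ZT14 were all above ad libitum ones (difference 0.14), and RiboTag ad libitum libraries at ZT14 were all below sorted ones (-0.23), both with an exact permutation p of 0.0571, again the smallest possible (adjusted 0.32). In RiboTag libraries the ratio was -2.15, -2.29 and -2.33 in ad libitum and -1.68, -1.86, -2.53, -1.64 and -0.89 in fasted mice at ZT2 (difference 0.53 ± 0.27 SE, exact permutation p = 0.143, adjusted 0.5). This was 0.33 without fasted replicate 5, 0.74 without fasted replicate 3 and 0.58 without these and ad libitum replicate 1. Among the leptin, knockout and ZT5 comparisons of the ratio the lowest exact permutation p was 0.229, and groups of 3 against 3 cannot go below 0.1.

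Agrp and Npy rose and fell together from library to library within a group. Over the 6 sorted ad libitum ZT2 libraries Pearson's r of the log2 levels was 0.980 (exact permutation p = 0.0028) and Spearman's rho 1.00 (p = 0.0028). Without the 2 libraries farthest from the median of Agrp r was 0.849, and after scaling to the summed counts it was 0.971. Over the 7 fasted ZT2 libraries r was 0.955 (exact permutation p = 0.0016) and rho 0.929 (p = 0.0067), with 0.989 without 2 libraries. Over the 8 fasted ZT14 libraries r was 0.994 (exact permutation p = 0.0001) and rho 0.976 (p = 0.0004), with 0.977 without 2 libraries. These are the 3 groups with at least 6 libraries, and the p-values of r adjusted over them are 0.0028, 0.0024 and 0.0003 and those of rho 0.0042, 0.0067 and 0.0012. The relation held in each group without the 2 outermost libraries.

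**Figure D5:**
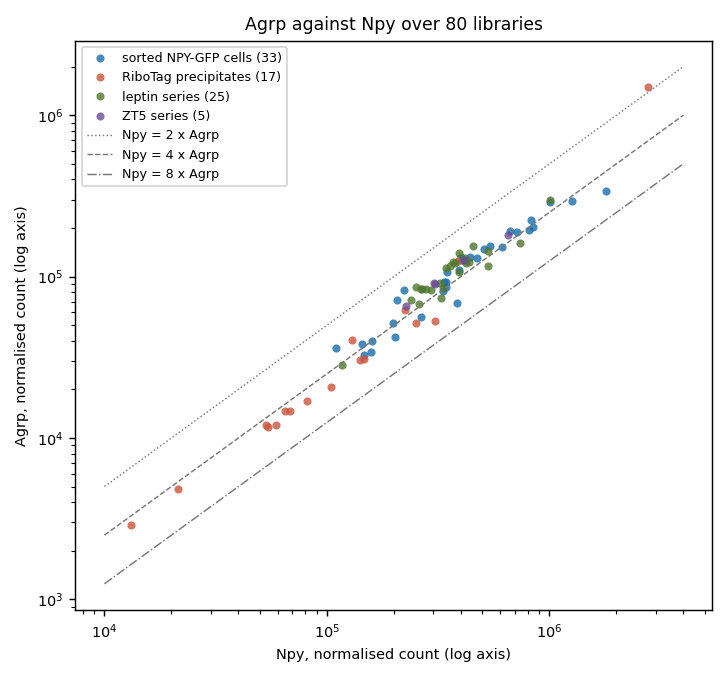
Agrp (vertical) against Npy (horizontal) in each library (normalised counts, log axes), coloured by experiment, with guide lines where Npy is 2, 4 and 8 times Agrp. All groups follow 1 band between the lines for 2 and 8, apart from RiboTag fasted ZT2 replicate 5, whose Npy is less than 2 times its Agrp.

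Across the series the closest companion of each gene was the other. Among 11263 genes, Npy had the highest Pearson correlation with Agrp, and Agrp with Npy, over the 20 group means (r = 0.994), over the 80 libraries (0.982) and over the 80 libraries after centring each group (0.964). Each was still in place 1 without the libraries that stand apart (0.992, 0.980 and 0.960). The median gene had an r of -0.07 with Agrp. These correlations are descriptions over libraries that share groups, depth and scaling. With groups centred, within the leptin series alone each was in place 5 of those closest to the other (r = 0.930), and in place 1 within the sorted (0.977) and the RiboTag libraries (0.980).

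After Npy, the genes closest to Agrp over group means were Ssr4 (r = 0.969), a subunit of the translocon-associated complex of the endoplasmic reticulum, Prdx2 (0.959), a peroxiredoxin, Fkbp11 (0.955), a prolyl isomerase of the secretory pathway, Tnnc1 (0.954), a troponin, and Uchl1 (0.946), a neuronal deubiquitinase. For Npy they were Ssr4 (0.967), Prdx2 (0.963), Fam159a (0.950), Uchl1 (0.948) and Fkbp11 (0.946). Within groups the list changed at its head, to Cited1 (0.886 for Agrp and 0.913 for Npy), a transcriptional co-regulator, followed by Fkbp11 (0.824 and 0.888) and Fam159a (0.805 and 0.851).

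The receptors through which the 2 peptides act were described beside them, from lists of the pathway that were chosen with earlier results of these data known. In sorted cells, fasted libraries also had the profile of high Cebpb and low Rn45s that ad libitum and refed ones lacked. Differences of fasted cells from either group, here and in the lists below, cannot be told apart from that profile. Of 5 tested genes of the NPY family and its receptors, 3 fell and 1 rose with fasting in sorted cells at ZT2, with a median log2 difference of -1.03 against -0.02 over all genes, of which 37.5% were called. Npy2r, the autoreceptor, went from 6006 to 7493 (median 6902) in ad libitum cells to 799 to 4269 (median 1838) in fasted cells without overlap, a log2 difference of -1.82 ± 0.39 (SE; limma, adjusted p = 0.0004). It was still 951 to 5186 (median 2074) in refed cells, -1.74 ± 0.43 from ad libitum (limma, adjusted p = 0.0050), while Npy was at its highest there. Npy1r fell by 2.08 ± 0.62 (SE; limma, adjusted p = 0.0081) with fasting and was higher by 1.91 ± 0.65 in refed than in fasted cells (adjusted p = 0.0330). Npy5r fell by 1.03 ± 0.32 (SE; limma, adjusted p = 0.0117), and Dpp4, a peptidase that trims NPY, rose by 3.06 ± 1.04 (adjusted p = 0.0199). In RiboTag libraries at ZT2 none of the 5 passed, with a median of -1.15 against -0.19 over all genes and 7.89% of genes called.

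Of 8 tested genes of the melanocortin system, 1 rose and 2 fell with fasting in sorted cells at ZT2 (median -0.34), a share equal to the 37.5% called over all genes. Pomc rose by 2.21 ± 0.77 (SE; limma, adjusted p = 0.0231), and Mrap2, an accessory protein of melanocortin receptors, fell by 1.21 ± 0.34 (adjusted p = 0.0046), as did Atrn by 1.12 ± 0.21 (adjusted p = 7.2e-05). In RiboTag libraries at ZT2 Pomc rose by 3.32 ± 0.91 (SE; limma, adjusted p = 0.0320) and Mrap2 fell by 0.92 ± 0.27 (adjusted p = 0.0462), among 9 tested, where 7.89% of all genes were called. Without the libraries that stand apart neither passed (4.18 ± 1.16 SE and -0.93 ± 0.26; limma, adjusted p = 0.0653 and 0.0662). Pomc marks the neighbouring POMC neurons, and 2 of 5 markers of these cells rose in sorted fasted cells at ZT2, whose part in the result was not tested.

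Among 8 hormone and transmitter receptors of AgRP neurons, the leptin receptor Lepr rose and 3 fell with fasting in sorted cells at ZT2 (median -0.65), where 37.5% of all genes were called. Lepr was 197 to 967 (median 317) in ad libitum, 392 to 1675 (median 642) in fasted and 1042 to 3915 (median 1855) in refed cells, ordered as Agrp and Npy were. Its log2 difference was 1.14 ± 0.37 (SE) for fasted (limma, adjusted p = 0.0137) and 2.46 ± 0.40 for refed against ad libitum cells (adjusted p = 7.0e-05), and the ghrelin receptor Ghsr was higher by 1.30 ± 0.38 in refed cells (adjusted p = 0.0165). The insulin receptor Insr fell by 1.92 ± 0.27 (SE; limma, adjusted p = 1.4e-06) with fasting and was higher by 1.89 ± 0.29 in refed than in fasted cells (adjusted p = 7.6e-06), with Adcyap1r1 and Oprm1 the other receptors that fell. Both Insr differences also separate libraries by the Cebpb and Rn45s profile, whose part was not tested. In RiboTag libraries Insr fell by 2.84 ± 0.51 (SE; limma, adjusted p = 0.0023) and Adcyap1r1 by 1.67 ± 0.48 (adjusted p = 0.0417), while Lepr stood at -0.54 ± 0.83 and was not called. Of these only the Insr call held without the libraries that stand apart (-3.17 ± 0.58 SE; limma, adjusted p = 0.0057, against 0.267 for Adcyap1r1).

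Of 14 regulators of Agrp and Npy transcription, 4 rose and 4 fell in fasted sorted cells at ZT2 (median 0.09), where 37.5% of all genes were called. Bsx, a homeodomain factor needed for both peptides, rose by 1.38 ± 0.42 (SE; limma, adjusted p = 0.0093) and was 1.33 ± 0.46 above ad libitum in refed cells (adjusted p = 0.0390). Otp rose by 1.85, while Creb1 fell by 1.72, Crtc1 by 0.98 and the glucocorticoid receptor Nr3c1 by 0.94. Foxo1 and Stat3, which act on the Agrp promoter under insulin and leptin signalling, had log2 differences of 0.13 ± 0.30 and 0.05 ± 0.25 (SE) and were not called. Bsx, Foxo1 and Stat3 were named after their values were seen, as were Gad1 and the RiboTag value of Lepr. In refed against ad libitum cells only Bsx of the 14 was called, where 17.7% of all genes were, and without ad libitum replicate 4 that call was lost (1.23 ± 0.48 SE; limma, adjusted p = 0.0804).

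Peptide processing and GABA genes were described last. Of 9 prohormone processing genes, the convertase Pcsk1 (1.02 ± 0.33 SE) and the carboxypeptidase Cpe (2.67 ± 0.35) rose and Cpd fell with fasting in sorted cells at ZT2, and Pcsk1 was 1.62 ± 0.36 above ad libitum in refed cells (limma, adjusted p = 0.0139, 3.3e-07 and 0.0020 for the first, second and last). These 3 of 9 are near the 37.5% of all genes called with fasting. Of 4 GABA genes, 3 fell with fasting: the synthetic enzyme Gad2 (-1.44 ± 0.27 SE), the vesicular transporter Slc32a1 (-1.03 ± 0.38) and the GABA-degrading enzyme Abat (-1.77 ± 0.28), with limma's adjusted p = 8.1e-05, 0.0305 and 5.3e-06, while Gad1 was at 0.25 ± 0.29 and was not called. Without ad libitum replicate 4 the Slc32a1 call was lost (-0.96 ± 0.40 SE; limma, adjusted p = 0.0652), and it was the only one of the called list genes named here for fasting in sorted cells at ZT2 to be lost. In refed against ad libitum cells Gad2 was at 0.00 ± 0.30, Slc32a1 at -1.03 ± 0.41 and Abat at -0.77 ± 0.30, and none of these was called. In the leptin contrast, where 0.925% of all genes were called, Pomc and the opioid receptor Oprk1 (-1.16 ± 0.24 SE, limma, adjusted p = 0.0141) were the only ones called of all 47 tested genes of these lists. None was called between knockouts and controls, where 0.0789% of all genes were, so none among 47 is near that share.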

How the data were processed

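RNA-seq was measured in 80 libraries of 20 groups. The authors deposited 1 table of normalised counts (a signal per gene, 23337 genes); per the submitters' processing notes it involved STAR 2.5.1, featureCounts, DESeq, DESeq2, R 3.5.1 and mm10, and their roles are not given in the sources used here. Values were whole multiples of 1 read (within 0.1 of a whole number) for at least 99.99% of genes in 79 libraries and for 17.5% in sorted ad libitum ZT2 replicate 4, which was left out of the count tests. In that library the step of 1 read was fitted from its smallest value and not from the finer step of 0.536. The other count tests used these recovered reads and called 5091 genes (edgeR) and 5549 (DESeq2) for fasting in sorted cells at ZT2, where limma called 5593.

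The main test was limma 3.58.1 (R 4.3.3) with a mean-variance trend on log2(value + 1), fitted within each experiment after a filter that asked for 10 or more normalised counts in a number of libraries equal to the size of its smallest group, with Benjamini-Hochberg adjustment over all genes. Differences are on that log2 scale, and a p under 0.05 after adjustment is called. The log2 ratio of Agrp to Npy was tested by exact two-sided permutation, adjusted over 28 comparisons. Alternatives were edgeR 4.0.16, DESeq2 1.42.0, other scalings, filters, pseudocount 10, library weights, 1 fit over all groups, a replicate block and leaving out libraries. The fits were tested on simulated data. Sequences were read from GENCODE M21 transcripts and the RefSeq promoter table.

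The members and gene lists were chosen with earlier results of these data known. Named were Agrp and Npy, up to 4 called members of a list per comparison with the smallest p (up to 2 where none was called), the 5 genes most like each by Pearson's r, genes that set libraries apart, and neighbours of Agrp. The result of 1 gene among the GABA genes is not reported here.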

Additional observations from a re-analysis of the deposited data

Results flagged for a closer look

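RiboTag fasted ZT2 replicate 5 stood far above the other 4 libraries of its group for both genes. Agrp was 1488870 normalised counts there, and its gap to the next library was 0.942 of the group's range, above the critical value of 0.71 for 5 libraries. Npy was 2761620, with a gap of 0.901 of the range. Of 27 sets of values examined these 2 were flagged, and chance flags about 1 in 20.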

How the results depend on the processing

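All values here are adjusted p. Over the alternatives other than leaving out 1 library, 354 results of Agrp, 341 of Npy and 79 of the ratio kept their direction and side of the threshold, and 14, 19 and 4 turned direction, none of them a called difference. In 1 fit over all 20 groups, Npy in fasted sorted cells at ZT2 was lost (0.0599), and calls were gained for Npy in RiboTag fasting at ZT2 (0.000519) and averaged (0.00127), RiboTag fasted time (0.00232 for Agrp and 0.0131 for Npy) and Npy in RiboTag against sorted at ZT14 (0.0263). With no filter, Npy fasting at ZT2 (0.0684) and Agrp in RiboTag fasting at ZT2 (0.0559), averaged (0.0589) and RiboTag against sorted at ZT14 (0.0554) were lost. With scaling to the summed values, Agrp in RiboTag fasting was lost (0.0673 at ZT2, 0.0664 averaged) and Npy in RiboTag against sorted at ZT14 gained (0.0377), and TMM gained Npy in averaged RiboTag fasting (0.0490).

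With edgeR, Agrp in sorted fasting at ZT14 (0.0466) and Npy in RiboTag fasting at ZT2 (0.0422), averaged (0.0192) and RiboTag against sorted at ZT14 (0.0364) were gained, and RiboTag against sorted at ZT2 was lost (0.0817 and 0.0791). Direction turned for refed minus fasted at ZT14 (0.940 and 0.897), Npy in RiboTag ad libitum time (1.00), leptin averaged (1.00) and leptin by genotype (1.00 and 0.976). With DESeq2, gains were Agrp in sorted fasting at ZT14 (0.0132), refed minus fasted at ZT2 (0.0430 and 0.0322), Npy in RiboTag fasting (0.000232 at ZT2, 0.000245 averaged), RiboTag fasted time (0.00200 and 0.0132) and Npy in RiboTag against sorted at ZT14 (0.0193). The same directions turned (0.916 and 0.873, 1.00, 1.00, 0.995 and 0.974).

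With library weights, gains were sorted fasting at ZT14 (0.000191 and 0.00414), Agrp in refed minus ad libitum at ZT14 (0.0270) and Npy in RiboTag fasting at ZT2 (0.0115), averaged (0.00956) and RiboTag against sorted at ZT14 (0.00220). Direction turned for Npy in the fasting effect by time (0.780), refed minus fasted at ZT14 (0.306 and 0.400), sorted fasted time (0.735 and 0.635), leptin averaged (0.976 and 0.960), and Npy in leptin in controls at ZT14 (0.915), leptin by genotype (0.751) and time in leptin-treated controls (0.955). The libraries that stand apart were chosen after seeing the data, in RiboTag partly by their Agrp and Npy values. Without them, Npy was gained in averaged RiboTag fasting (0.00957) and RiboTag against sorted at ZT14 (0.00885) and lost at ZT2 (0.123), and RiboTag ad libitum time turned (1.00). Medians in place of means turned 4 ratio differences (1.00). The cause of these changes was not tested. No ratio could be tested at ZT5 without those libraries, since 1 control remained.

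The same replicate number did not pair libraries (median correlation of deviations 0.00 in sorted and -0.03 in RiboTag libraries). With a replicate block, Agrp was lost in RiboTag fasting at ZT2 (0.0505) and averaged (0.0937) and RiboTag against sorted at ZT14 (0.0634), and direction turned for refed minus fasted at ZT14 (0.970 and 0.910), Npy in ad libitum time (1.00) and PBS control time (1.00), and Agrp in RiboTag fasting at ZT14 (0.991) and leptin at ZT2 (1.00 in controls, 0.998 in knockouts).

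Leaving out 1 library at a time, the adjusted p ranged from 0.0139 to 0.0635 for Npy in sorted fasting at ZT2, 0.00925 to 0.344 for Agrp at ZT14, and 0.00149 to 0.0666 for Npy averaged (effect by time 0.996 to 1.00). It ranged from 0.0378 to 0.214 and 0.0474 to 0.315 for refed minus fasted at ZT2, 0.790 to 0.987 and 0.816 to 0.993 at ZT14, and 0.805 to 0.998 for Npy in fasted time. RiboTag fasting gave 0.0211 to 0.177 and 0.0270 to 0.231 at ZT2, and 0.0119 to 0.118 and 0.0104 to 0.151 averaged. RiboTag against sorted gave 0.0180 to 0.188 and 0.0204 to 0.228 at ZT2 and 0.0467 to 0.159 for Agrp at ZT14. All ranges for leptin, genotype and control time that held a change reached 1.00 from lowest values, Agrp first, of 0.997 and 1.00, 0.880 and 0.949, 0.701 and 0.450, 0.932 and 0.938 (leptin in controls at ZT2 and ZT14, then knockouts), 0.989 for both (averaged), 0.826 and 0.910 (by genotype), 0.683 and 0.694, 0.931 and 0.972 (knockout at ZT14, PBS then leptin), and 0.994 and 0.969 (PBS control time). Ratio ranges reached 1.00 from 0.905, 0.875, 0.747, 0.718, 0.692, 0.492 or 0.457.

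Numbers of genes called moved by over 1.5 times in several comparisons, most under library weights: 2758 to 5539 for sorted fasting at ZT14, 1741 to 3960 for refed minus fasted at ZT14, 56 to 737 and 1856 to 3864 for refed minus ad libitum at ZT14 and averaged, 129 to 336 for leptin, 11 to 387 for genotype and 89 to 1105 for time. Refed minus ad libitum at ZT2 went from 2648 to 1755 with edgeR, and RiboTag fasting at ZT2 from 1219 to 622 without libraries that stand apart and to 3746 in 1 fit over all groups.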

Other observations

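Atp6v0d1, a subunit of the vacuolar proton pump and a neighbour of Agrp on chromosome 8, was also higher in fasted than in ad libitum sorted cells at ZT2, by 1.18 ± 0.19 (SE) on the log2 scale, and in refed cells by 1.68 ± 0.21. Over the 20 group means its r with Agrp was 0.825, in place 238 of 11263 genes. Hsd11b2, the gene next to Atp6v0d1 on the side away from Agrp, had an r of -0.36 with Agrp over the same means. Its level was split between series and genotypes, as given above, and over the 80 libraries after centring each group its r with Agrp was 0.09.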
